A study of Mus musculus with 22 samples.

Results

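The step from day 1 to day 2 after muscle injury was followed in the Gr1+/Cx3cr1low cells, the sorted subset of muscle macrophages that carries the myeloid surface marker Gr1 and little of the fractalkine receptor Cx3cr1. It was read from 6 of the 22 arrays of the series, the 3 arrays of day 2 against the 3 arrays of day 1. The arrays hold log2 signals, and each of 19938 genes was read from 1 of the 21789 probe sets that name a single gene. All samples were of strain C57B6/J and came from tibialis anterior, a muscle of the shin, that had received cardiotoxin, a snake venom protein that destroys muscle fibres. CD45+ blood-lineage cells were taken from the regenerating muscle with magnetic beads, stained for Gr1 and Cx3cr1 and sorted. The labels name the sorted cells in the titles as Gr1+/Cx3cr1low and Gr1-/Cx3cr1high, and in the protocol also as Ly6C+ F4/80low and Ly6C- F4/80high cells. The series holds both subsets at days 1, 2, 4 and 8, with 3 arrays a group except 1 array for Gr1-positive cells at day 8. The arrays of a group are called biological replicates, but the labels do not say how many animals each one pools, and no uninjured muscle or uninjected control entered this comparison. The p-values therefore measure spread between arrays. The spread of each gene was estimated over all 22 arrays, those of the other groups included.

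As background, Gr1-positive macrophages of injured muscle derive from Ly6C-high blood monocytes that enter the tissue soon after the fibres die. They are known for secreting inflammatory cytokines and chemokines early on and for clearing dead fibres, and later for turning into Ly6C-low cells that release growth factors for muscle stem cells. Fatty acid uptake, the nuclear receptor PPARγ and mitochondrial oxidation are known to be engaged along that conversion.

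The arrays of this comparison did not fall into their groups alone. Day 2 replicate 1 stood apart: 265 genes were more than 1 log2 unit above the mean of the other day 2 arrays and 109 more than 1 unit below it, where the other 5 arrays had 4 to 74 genes above and 20 to 63 below. Its correlation with the other day 2 arrays over all genes was 0.981 to 0.982, and theirs with each other was 0.997. Xist, the RNA made from the inactive X chromosome, read 12.09 log2 units on this array and 5.85 and 6.03 on replicates 2 and 3, while the Y-linked gene Eif2s3y read 3.89 on it and 9.72 and 9.62 on the others. On the day 1 arrays Xist read 11.69, 11.60 and 6.01 and Eif2s3y 9.08, 4.51 and 10.02, so that day 1 replicate 1 was high for both. The labels do not give the sex of the animals. Hal, the histidine-degrading enzyme, followed the same division with 11.91, 11.41 and 7.56 at day 1 and 12.25, 8.20 and 8.07 at day 2, and Gdpd3, a lipid phosphodiesterase, did so with 10.04, 10.91 and 6.82 at day 1 and 11.14, 6.94 and 7.07 at day 2. Cut at 9 log2 units, Xist and Hal put the same 3 arrays high, day 1 replicates 1 and 2 and day 2 replicate 1, and the same 3 low. The high class thus has 1 day 2 array and the low class 1 day 1 array, so a difference within a class rests on a single array. Leaving out day 2 replicate 1 compares day 2 arrays that are all low for these genes with day 1 arrays of which 2 are high, and results are given with it, without it and with these classes as terms.

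**Figure D1:**
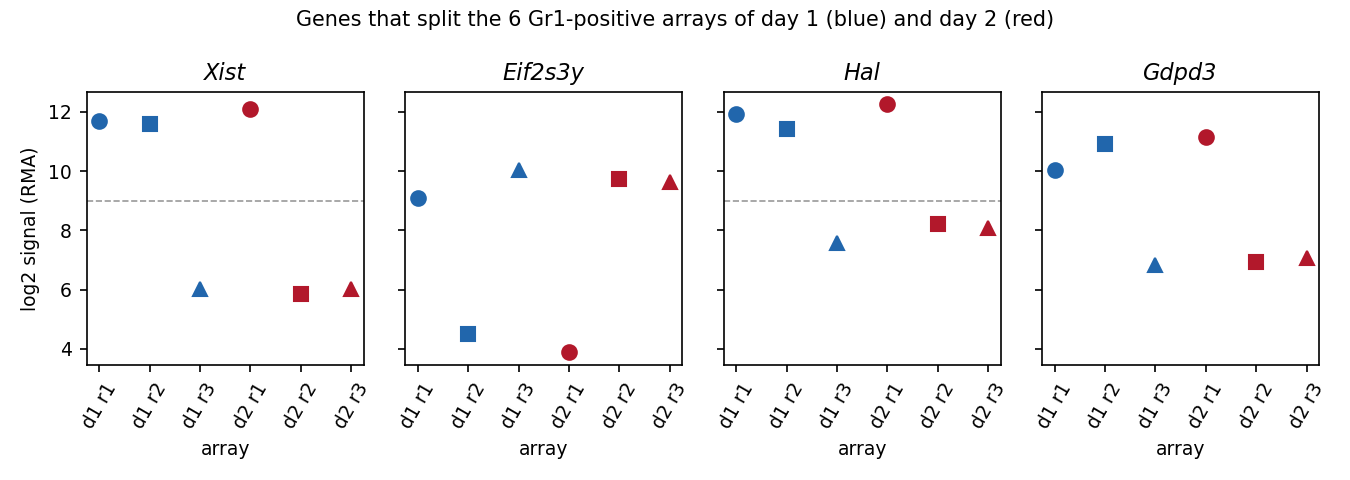
Log2 signal (vertical axis) of Xist, Eif2s3y, Hal and Gdpd3 on the 6 Gr1-positive arrays (horizontal axis; d1 and d2 are days, r1 to r3 replicates; circles, squares and triangles are replicates 1, 2 and 3), with the value 9 that divides the classes dashed for Xist and Hal. Day 1 replicates 1 and 2 and day 2 replicate 1 were high for Xist, Hal and Gdpd3, and the other 3 arrays were low.

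Between day 1 and day 2 the Gr1-positive cells lost signal for Arg1, Cxcl3, Nt5e and Thbd and gained signal for Igf1, the lipid genes Pparg, Fabp4, Lpl and Abcg1, and the protease inhibitor Timp2. In the limma fit 58 of the 19938 genes, 0.291%, passed a Benjamini-Hochberg adjusted p of 0.05, 32 of them higher at day 2 (0.16%) and 26 lower (0.13%). Of these, 10 rose and 7 fell at least 2-fold. In each of the 58 genes the 3 day 2 values lay on one side of the 3 day 1 values, a pattern that 8.68% of all genes showed upward and 4.25% downward. An unadjusted p under 0.05 was reached by 2448 genes, and the median log2 difference of all genes was 0.06. Of the 19938 genes, 13186 had higher means at day 2 and 6752 lower ones. Each left-out array changed the count: 4 genes passed without day 1 replicate 1, 26 without day 1 replicate 2, 259 without day 1 replicate 3, 955 without day 2 replicate 1, 4 without day 2 replicate 2 and 7 without day 2 replicate 3. Gpat3, Pparg and Mirt2, a long non-coding RNA named here because of this count, passed in all 6 of these fits. When only the 6 compared arrays were fitted, so that they alone gave the spread, 0 genes passed (1573 at an unadjusted p under 0.05). With the Xist and Hal classes as terms 60 genes passed, 43 of them among the 58. The classes coincide on all day 1 and day 2 arrays, so only arrays of days 4 and 8 tell the Xist term from the Hal term. The named genes that did not pass in that fit were Cxcl3, Fabp3, Nr1d1 and Ttyh2, with limma adjusted p of 0.0517 to 0.0636. When day 2 replicate 1 was also left out, Cxcl3, Fabp3 and Ttyh2 did not pass, nor did Igf1, Ccnyl1, H1f2, Htr7, Il1rap, Ly9, Rdh12 and Syngr1 (0.0510 to 0.0721).

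**Figure D2:**
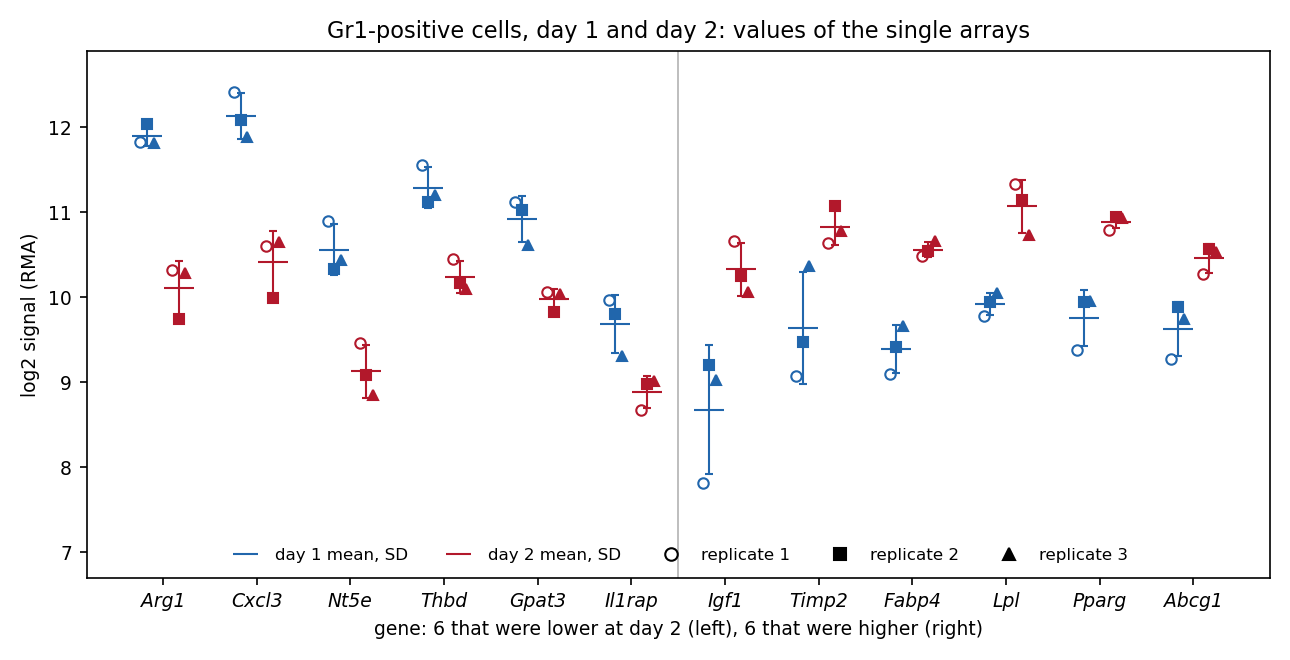
Log2 signal (vertical axis) of 12 genes that passed the limma test (horizontal axis), with day 1 in blue and day 2 in red; symbols are single arrays, the horizontal bar is the mean and the whisker the SD of 3 arrays. The 3 day 2 values lie below the 3 day 1 values for the 6 genes on the left and above them for the 6 on the right.

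Cxcl3, a chemokine that attracts neutrophils, was among the genes that fell. It (probe set 10523138) read 12.42, 12.09 and 11.89 log2 units at day 1 and 10.60, 9.99 and 10.65 at day 2. All day 2 arrays were lower by more than a log2 unit, and the difference was -1.72 ± 0.33 (SE, n = 3 and 3; limma adjusted p = 0.0358), a 3.29-fold fall. The call was lost with the Xist and Hal classes as terms (-1.62; adjusted p = 0.0517, and 0.0603 when day 2 replicate 1 was also left out) and with trend and robust moderation of the variances (0.0532). It was 1 of 5 measured CXC chemokines that passed, against 0.291% of all genes. The other members all had day 2 means below day 1 but did not pass: Ppbp, the platelet chemokine that is also made by monocytes, differed by -1.30 (adjusted p = 0.402), Cxcl5 by -0.72 (0.128), Cxcl1 by -0.38 (0.566) and Cxcl2 by -0.33 (0.272). The median over the list was -0.72. All day 2 values lay below all day 1 values for 4 of the 5, with Cxcl1 the exception, beside 4.25% of all genes. Cxcl1, Cxcl2 and Cxcl3 are close copies of each other, so their probe sets may share signal. The summed signal of 18 markers of neutrophils, the cells these chemokines attract, was lower at day 2 as well, 8864 to 10173 against 11737 to 15381 at day 1, and their part in these falls was not tested. In sorted bulk cells, fewer cells of a type and less RNA per cell cannot be told apart.

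The bases just before the starts of these chemokine genes are shown because Cxcl3 passed and its close copies Cxcl1 and Cxcl2 did not. They are the 250 bases before the RefSeq start in GRCm38.p6, all on the plus strand: chr5:90785851-90786100 for Cxcl3, chr5:90903649-90903898 for Cxcl2 and chr5:90890995-90891244 for Cxcl1. Capitals mark an NF-kB type motif, GGG then any 3 letters then TTCC, on either strand and TATAAA on either strand.
Cxcl3: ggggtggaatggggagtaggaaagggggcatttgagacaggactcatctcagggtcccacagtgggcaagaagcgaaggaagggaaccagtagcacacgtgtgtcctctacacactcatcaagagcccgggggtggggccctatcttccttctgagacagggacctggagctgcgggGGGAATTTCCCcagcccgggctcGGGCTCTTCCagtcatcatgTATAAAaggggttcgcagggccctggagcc
Cxcl2: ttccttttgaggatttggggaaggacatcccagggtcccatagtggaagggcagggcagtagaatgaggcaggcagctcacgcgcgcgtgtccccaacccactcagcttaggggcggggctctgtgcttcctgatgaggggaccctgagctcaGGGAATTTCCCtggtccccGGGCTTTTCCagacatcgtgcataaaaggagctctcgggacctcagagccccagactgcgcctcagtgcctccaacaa
Cxcl1: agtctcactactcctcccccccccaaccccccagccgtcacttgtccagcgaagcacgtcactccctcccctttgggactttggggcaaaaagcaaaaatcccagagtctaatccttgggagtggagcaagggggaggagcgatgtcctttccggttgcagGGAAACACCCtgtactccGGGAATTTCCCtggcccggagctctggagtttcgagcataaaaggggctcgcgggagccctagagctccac
All 3 windows hold the 11-letter run GGGAATTTCCC, which matches the motif on both strands, and a further match beside it. Cxcl3 alone of the 3 spells TATAAA, starting 30 bases before the start. Cxcl1 and Cxcl2 carry the letters cataaa, farther from their starts. Ppbp, whose window is not printed, also spells TATAAA starting 30 bases before its start, and it did not pass. The NF-kB type motif was found in 1527 of 32851 RefSeq windows of this length, 4.65%, and TATAAA in 12.4%. Of the 58 genes that passed, 41 had an entry. The NF-kB type motif was found in 1 of the 18 that fell (Cxcl3) and 1 of the 23 that rose (Fabp3). TATAAA was found in 4 of the 18 that fell and 4 of the 23 that rose. These counts are of genes with a match in any of their windows, while the percentages are of windows, so they are unlike measures. A match describes these letters and does not show that a factor bound there.

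Arg1, the arginase that turns arginine into ornithine and is used as a mark of alternatively activated and early wound macrophages, fell most of all the genes that passed. It read 11.83, 12.04 and 11.82 at day 1 and 10.32, 9.74 and 10.28 at day 2, a difference of -1.79 ± 0.32 (limma adjusted p = 0.0248) or 3.45-fold. The groups were more than a log2 unit apart on every array. It was the only 1 of 14 alternative activation and arginine genes that passed, beside 0.13% of all genes that passed downward. All 14 had lower means at day 2, beside 6752 of all 19938 genes, and the median difference of the 14 was -0.46. The median of that list was -0.78 within the class of arrays high for Xist and 0.04 within the low class. Arg1 itself differed by -1.62 in the high class and -1.81 in the low class.

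Nt5e, the surface enzyme CD73 that makes adenosine from AMP, read 10.90, 10.33 and 10.44 at day 1 and 9.46, 9.09 and 8.85 at day 2, a fall of 2.68-fold (-1.42 ± 0.25; limma adjusted p = 0.0240). Thbd, the thrombin receptor thrombomodulin, fell 2.07-fold from 11.56, 11.12 and 11.20 to 10.45, 10.17 and 10.10 (-1.05 ± 0.16; 0.0152). The smallest adjusted p of all genes belonged to Gpat3, an acyltransferase of triglyceride synthesis, which read 11.12, 11.03 and 10.61 at day 1 and 10.06, 9.83 and 10.04 at day 2 (-0.95 ± 0.11; 0.00217). These 3 genes had no overlap between the days, and the spread within a day was at most 0.31 log2 units (SD). Il1rap, the shared chain of the interleukin-1 and interleukin-33 receptors, fell by 0.80 (0.0204). Htr7, a serotonin receptor, fell by 1.05 (0.0331), and Pde4d, a phosphodiesterase that breaks down cyclic AMP, fell by 0.78 (0.0347). Pde4d had 3 probe sets whose differences ran from -1.70 to -0.08. The other named genes that fell were the retinol dehydrogenase Rdh12 (-1.34), Apbb3 (-0.99), the arrestin-like Arrdc4 (-0.95), Ccnyl1 (-0.91), Kansl1l (-0.87), the glycosyltransferase Mgat4a (-0.84) and the phosphatase-targeting subunit Ppp1r10 (-0.75), with log2 differences in brackets. Rdh12 had its day 1 values spread from 7.54 to 9.20, and its difference was -1.80 in the high class and -0.50 in the low class.

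Genes for taking up, binding and exporting lipid were among those that rose. Pparg, the nuclear receptor that switches on fatty acid uptake genes, rose 2.18-fold, from 9.38, 9.94 and 9.96 at day 1 to 10.79, 10.94 and 10.93 at day 2 (1.13 ± 0.15; limma adjusted p = 0.00450). Fabp4, a fatty acid binding protein that PPARγ is known to induce, rose 2.25-fold from 9.10, 9.42 and 9.66 to 10.49, 10.54 and 10.66 (1.17 ± 0.19; 0.0204). Lpl, the lipoprotein lipase that frees fatty acids from triglyceride, rose 2.22-fold from 9.78, 9.94 and 10.05 to 11.33, 11.15 and 10.73 (1.15 ± 0.22; 0.0347). In each of these the lowest day 2 array was above the highest day 1 array. Abcg1, which exports cholesterol to HDL, read 9.27, 9.88 and 9.74 at day 1 and 10.27, 10.57 and 10.53 at day 2 and rose 1.77-fold (0.82 ± 0.14; 0.0240). These were 4 of 19 measured members of a list of lipid handling genes and nuclear receptor targets, beside 0.160% of all genes that passed upward. The same 4 passed with the class terms, with and without day 2 replicate 1. No member passed downward, but 4 of the 19 had lower means at day 2. All day 2 values lay above all day 1 values for 8 members, beside 8.68% of all genes, and below them for 2, the scavenger receptors Msr1 and Olr1, beside 4.25%. The median of the list was 0.35.

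Other lipid genes lay on the same side without passing: Lipa, the lysosomal acid lipase, was 0.70 higher (limma adjusted p = 0.0734) and Apoe, the carrier of lipid out of macrophages, 0.55 higher (0.192) with groups that overlapped. The cholesterol exporter Abca1 went the other way, with 11.37, 10.85 and 11.34 at day 1 and 11.05, 10.22 and 10.19 at day 2 (-0.70; 0.194). Without day 2 replicate 1 it passed downward (-0.98; 0.0177) and the list had 6 members up, Lipa among them. Outside the list, the heart-type fatty acid binding protein Fabp3 rose by 0.91 (0.0494) and Acot2, a mitochondrial thioesterase of fatty acyl-CoA, by 0.84 (0.0364). The 16 cholesterol synthesis genes had no call and a median of -0.21, with a median of -0.57 in the high class and 0.25 in the low class.

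Igf1, the insulin-like growth factor that repair macrophages supply to muscle stem cells, had the largest rise of the genes that passed, 3.13-fold. It read 7.81, 9.20 and 9.03 at day 1 and 10.66, 10.25 and 10.06 at day 2 (1.64 ± 0.29; limma adjusted p = 0.0240), with day 1 replicate 1 lowest and the days apart. It belonged both to the growth factors of repair and to the resident-type macrophage genes. It was the only call among the 12 and 18 measured members, beside 0.16% of all genes that passed upward. Of the 12 growth factors 6 had higher means at day 2 and 6 lower. All day 2 values lay above day 1 for 2 of them and below for 3, beside 8.68% and 4.25% of all genes. With the class terms Igf1 still passed (0.0245), but not when day 2 replicate 1 was left out as well (1.55; 0.0510). The bases before its RefSeq start, chr10:87860861-87861110 on the plus strand of GRCm38.p6, are shown because Igf1 led the rises; capitals mark the AP-1 type motif TGANTCA and the nuclear receptor half-site AGGTCA, on either strand.
Igf1: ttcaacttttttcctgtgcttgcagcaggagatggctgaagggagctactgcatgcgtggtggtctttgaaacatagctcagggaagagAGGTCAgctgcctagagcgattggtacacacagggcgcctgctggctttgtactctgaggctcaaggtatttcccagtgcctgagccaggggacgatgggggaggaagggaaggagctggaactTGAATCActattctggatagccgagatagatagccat
TGANTCA was found in 6.75% and AGGTCA in 14% of all 32851 windows. Among the genes that passed, counted by gene and not by window, TGANTCA was found in 4 of the 23 that rose and 1 of the 18 that fell. AGGTCA was found in 5 and 3.

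Timp2, an inhibitor of matrix metalloproteinases, rose 2.28-fold from 9.08, 9.47 and 10.37 to 10.64, 11.07 and 10.78 (1.19 ± 0.21; limma adjusted p = 0.0240), and was the only call among 16 matrix proteases and inhibitors, whose median was -0.22. Cd40, the costimulatory receptor for T cell help, read 9.01, 9.38 and 8.87 at day 1 and 9.52, 9.97 and 10.09 at day 2 and rose 1.71-fold (0.77 ± 0.16; 0.0478), the only call of 11 costimulatory and checkpoint genes. The median of these 11 was -0.09. All day 2 values lay above day 1 for 3 of them and below for 3, beside 8.68% and 4.25% of all genes. Over all genes 0.16% passed upward. The transporter Abcg3 rose by 1.34 (0.0358), the histone genes H2bc4 by 1.27 (0.0152) and H1f2 by 0.93 (0.0240), the vesicle protein Syngr1 by 1.18 (0.0471), the chloride channel Ttyh2 by 1.07 (0.0358) and the redox protein Prxl2a by 1.04 (0.00900). Nr1d1, the clock repressor REV-ERBα, rose by 0.92 (0.0494) from 8.22, 8.78 and 8.65 to 9.26, 9.50 and 9.66, and Ly9, a SLAM family receptor of leukocytes, by 0.86 (0.0494). Histone genes are near-identical in sequence, so H2bc4 and H1f2 may include signal from their relatives.

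None of 20 inflammatory cytokine and inflammasome genes passed, and their median was -0.28 beside 0.06 over all genes. It was -0.29 within the class of arrays high for Xist and 0.12 within the low class. All day 2 values lay above day 1 for 2 of them and below for 5, beside 8.68% and 4.25% of all genes. The cytokine Il6 read 10.72, 9.93 and 9.0 at day 1 and 8.56, 8.88 and 9.16 at day 2 (-1.01; limma adjusted p = 0.217), so that the groups overlapped on day 1 replicate 3. Il1b differed by -0.27 (0.497) and Lif, a cytokine of the interleukin-6 family, by -0.70 (0.145), with no overlap in either. Of the 12 CC chemokines none passed. All day 2 values lay below day 1 for 6 of the 12 and above for 1, beside 4.25% and 8.68% of all genes. The monocyte attractants Ccl2 and Ccl12 differed by -0.46 (0.0734) and -1.57 (0.0891). No gene passed among 17 Toll-like receptor and NF-kB feedback genes (median -0.11), 18 immediate early genes (0.06), 24 interferon-stimulated genes (-0.20), 11 MHC class II genes (0.09), 19 glycolysis genes (0.07) or 17 hypoxia response genes (0.06).

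**Figure D3:**
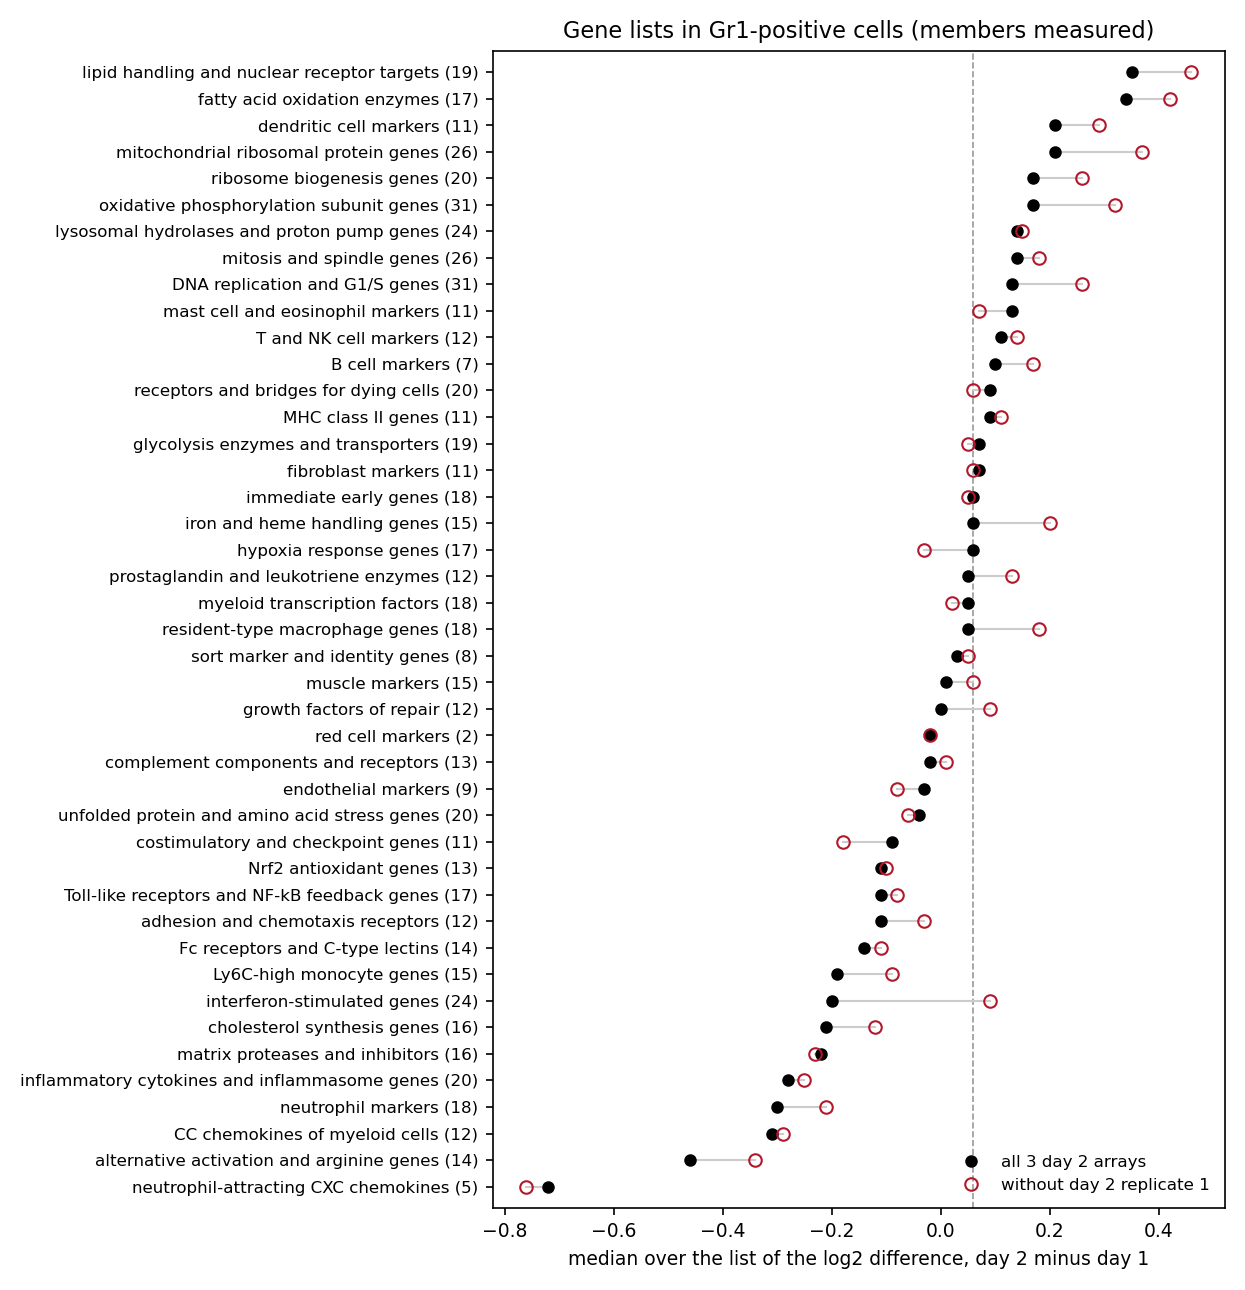
Median log2 difference, day 2 minus day 1, over the members of each of 43 gene lists (horizontal axis), with the number measured in brackets; black points use all arrays, red circles leave out day 2 replicate 1, and the dashed line is the median of all genes, 0.06. Lipid handling (0.35) and fatty acid oxidation (0.34) have the highest medians and CXC chemokines (-0.72) the lowest, and interferon-stimulated genes move from -0.20 to 0.09 without that array.

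Without day 2 replicate 1, 955 genes passed (4.79%), 722 up and 233 down, and all 58 were among them. Of the 43 lists the fatty acid oxidation enzymes held the most calls in that fit: 8 of 17 rose, beside 3.62% of all genes, and none fell. Hadh, the short-chain hydroxyacyl-CoA dehydrogenase, read 9.18, 9.38 and 9.71 at day 1 and 9.97, 10.50 and 10.26 at day 2: it differed by 0.82 over all arrays (limma adjusted p = 0.0538) and by 0.96 without that array (0.0147). Decr1, Echs1 and Acads, further enzymes of the pathway, differed by 0.85, 0.64 and 0.50 over all arrays (0.0957, 0.118 and 0.141) and by 1.05, 0.80 and 0.68 without it (0.0177, 0.0196 and 0.0127). In the same fit 7 of 31 oxidative phosphorylation genes and 7 of 26 mitochondrial ribosomal protein genes rose, among them Sdha of succinate dehydrogenase (0.50; 0.0244), Ndufs3 of complex I (0.50; 0.0153), Mrpl9 (0.61; 0.0118) and Mrpl16 (0.61; 0.0177). Of the 20 ribosome biogenesis genes 4 rose and of the 31 DNA replication genes 3, including the helicase subunit Mcm2 (0.59; 0.0224).

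The day 2 arrays differed in these lists. Against the day 1 mean, the median fatty acid oxidation gene was 0.02 higher on day 2 replicate 1 and 0.50 and 0.47 higher on replicates 2 and 3. For oxidative phosphorylation the medians were -0.07, 0.28 and 0.35, for mitochondrial ribosomal proteins -0.07, 0.38 and 0.32, and for interferon-stimulated genes -0.77, 0.09 and 0.12. Day 2 replicate 1 is the only day 2 array high for Xist and Hal, so its values and those of the high class at day 2 cannot be told apart. Among the low arrays the median fatty acid oxidation difference was 0.51. With the classes as terms and day 2 replicate 1 left out, 211 genes passed (1.06%), 199 of them among the 955 (20.8%) and 37 among the 58. There 3 of the 17 fatty acid oxidation enzymes, 1 of the 31 oxidative phosphorylation genes and 4 of the 26 mitochondrial ribosomal protein genes rose. What sets the classes apart was not tested.

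**Figure D4:**
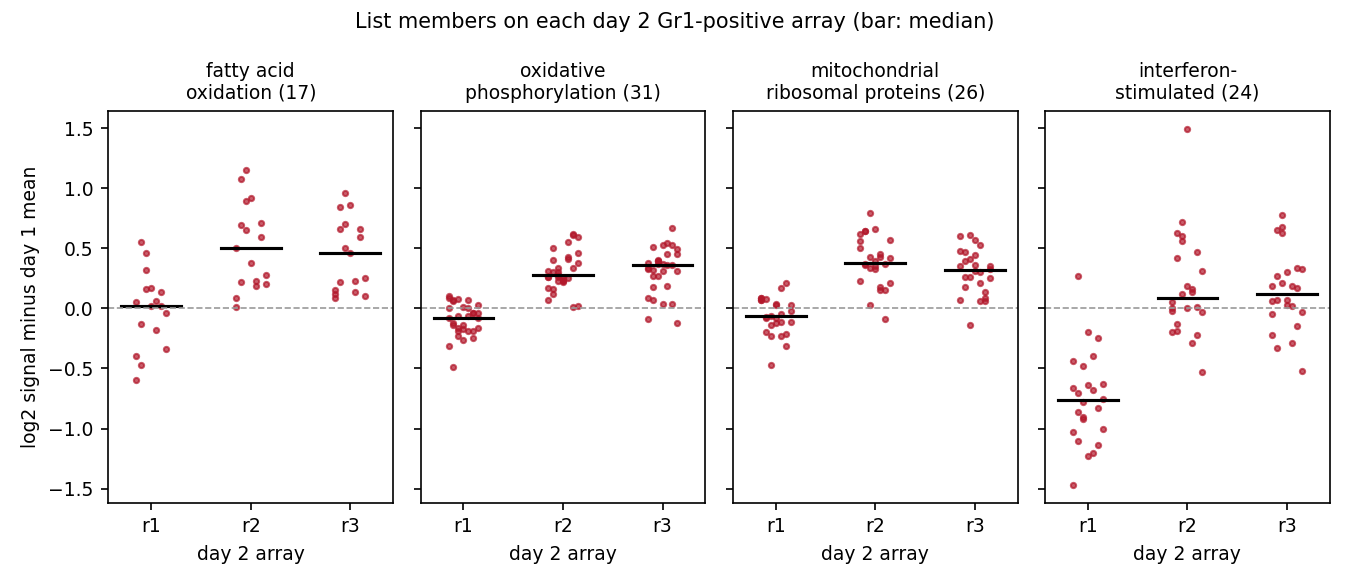
Log2 signal of each member minus its mean over the 3 day 1 arrays (vertical axis) on the day 2 Gr1-positive arrays r1, r2 and r3 (horizontal axis); points are genes, bars medians, and the number of genes is in brackets. In the first 3 lists replicate 1 has medians of 0.02, -0.07 and -0.07 and the other arrays 0.28 to 0.50, and the interferon-stimulated genes have a median of -0.77 on replicate 1.

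Lists of tissue-resident macrophages and of the clearing of dead cells had 1 call over all arrays, Igf1, and more without that array, where 3.62% of all genes passed upward and 1.17% downward. Of 18 resident-type genes 5 rose without it and none fell (Igf1, Cd5l, Pltp, Cbr2 and Selenop; median 0.18), and of 13 complement genes 3 rose and none fell (median 0.01). Of 20 receptors and bridges for dying cells 2 rose, Gas6 and its receptor Axl, and 1 fell, the transglutaminase Tgm2 (median 0.06). With the class terms and the array left out the calls were 1 (Pltp), 1 (C1qc) and 0. Over all arrays 9 of the 18 resident-type genes had higher means at day 2 and 9 lower, with a median of 0.05. All day 2 values lay above day 1 for 3 of them and below for 3 (Cd163, Pf4 and Ccl8), beside 8.68% and 4.25% of all genes. The complement subunits C1qa, C1qb and C1qc, which tag dead cells, differed by 0.63, 0.37 and 0.61 over all arrays (limma adjusted p = 0.257, 0.276 and 0.235) and by 0.95, 0.54 and 0.94 without day 2 replicate 1 (0.0153, 0.0272 and 0.0114). C1qc read 10.59, 10.87 and 11.28 at day 1 and 10.87, 11.97 and 11.74 at day 2, so its lowest day 2 value lay among the day 1 values. Gas6, the bridge between dying cells and Axl, read 7.57, 7.72 and 8.47 at day 1 and 8.51, 9.70 and 9.30 at day 2 (1.25, 0.109; without the array 1.58, 0.0176). The scavenger-receptor protein Cd5l and the lipid transfer protein Pltp were 1.29 (0.0295) and 1.26 (0.0152) higher without it, and 1.04 (0.152) and 0.87 (0.209) with it. Outside these lists Bhlhe41, a transcription factor of resident macrophages, was 1.78 higher over all arrays (0.0507) and 1.62 without day 2 replicate 1 (0.0362). In the other direction Chil1, a chitinase-like protein secreted by myeloid cells, read 11.17, 10.86 and 11.06 at day 1 and 10.56, 7.65 and 7.44 at day 2: it did not pass over all arrays (-2.48; 0.254) and fell by 3.48 without the array (0.0300).

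The cells carried pan-leukocyte and macrophage genes on both days. Of 8 measured sort marker and identity genes, the pan-leukocyte gene Ptprc read 11.18 to 11.47 at day 1 and 11.18 to 11.32 at day 2, the macrophage gene Cd68 12.76 to 12.95 and 12.78 to 12.85, and Csf1r 11.84 to 11.99 and 11.90 to 12.05, with overlapping groups. None of the 8 passed. Cx3cr1, by which the subset was gated low, read 7.77, 8.06 and 8.35 at day 1 and 8.48, 9.31 and 8.84 at day 2 (0.82; limma adjusted p = 0.163), and passed without day 2 replicate 1 (1.02; 0.0338). Adgre1, which encodes F4/80, was 0.30 higher (0.158) and Itgam, which encodes CD11b, 0.22 lower (-0.22; 0.205), each with no overlap. Ly6g, the neutrophil antigen that Gr1 antibodies also bind, read 6.38, 6.89 and 6.13 at day 1 and 6.08, 5.92 and 6.30 at day 2. The groups overlapped for Ccr2, the remaining identity gene. Ly6c1 and Ly6c2, the genes of the Ly6C in the label, were not measured by the probe sets used. Of 15 measured Ly6C-high monocyte genes none passed, 12 had lower means at day 2 (beside 6752 of all 19938), and the median was -0.19. All day 2 values lay below day 1 for 4 of them and above for 0, beside 4.25% and 8.68% of all genes.

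Markers of other cell types were read from 9 lists. None of 18 neutrophil markers passed, 16 had lower means at day 2, and the median was -0.30. The median was -0.45 within the class of arrays high for Xist and -0.02 within the low class. Their summed linear signal, given above, did not overlap between the days. S100a9, the calprotectin subunit of neutrophils and young monocytes, read 9.78, 9.04 and 9.55 at day 1 and 8.52, 8.29 and 8.19 at day 2 (-1.12; limma adjusted p = 0.0556; -1.22 and 0.0218 without day 2 replicate 1). B cell markers summed to 758 to 927 at day 1 and 1005 to 1156 at day 2. Of their 7 members 6 were higher, beside 13186 of all 19938 genes, and their median was 0.10, beside 0.06 over all genes. The summed signals overlapped between the days for markers of dendritic cells (11 measured, 1662 to 1878 and 1822 to 2257), T and NK cells (12, 1106 to 1220 and 1167 to 1314), mast cells and eosinophils (11, 1663 to 2724 and 1890 to 2065), fibroblasts (11, 1518 to 1552 and 1541 to 1708), muscle (15, 2645 to 2925 and 2542 to 2990) and endothelium (9, 1369 to 1632 and 1322 to 1449). For red cells 2 markers were measured, with sums of 165 to 170 and 164 to 165. None of these lists had a call over all arrays. Their part in the changes above was not tested.

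The step was set beside the same step in the Gr1-negative, Cx3cr1-high cells, which shares no array with it. Same-numbered arrays of the subsets deviated from their group means together at day 2 (r = 0.412 to 0.646 over all genes), so the steps are not independent. Xist and Hal also divided the Gr1-negative arrays in the same way, with day 1 replicates 1 and 2 and day 2 replicate 1 high. Both steps thus carry the same imbalance of classes, and agreement between them cannot tell day from class. In Gr1-negative cells 973 genes passed (4.88%), 757 up (3.8%) and 216 down (1.08%). Of the 58 genes, 41 passed in both subsets, 70.7% of the 58 and 4.21% of the 973, and all 41 moved the same way. Igf1 rose by 1.76 in Gr1-negative cells (limma adjusted p = 0.00254), Lpl by 1.46 (0.00143), Fabp4 by 1.31 (0.00129) and Pparg by 0.73 (0.0109), and Cxcl3 fell by 1.78 (0.00554), Nt5e by 1.71 (0.00113), Gpat3 by 1.39 (4.94e-06) and Arg1 by 1.27 (0.0279). The difference between the steps was tested directly over 12 arrays, and no gene passed (0 of 19938, 0.0%; 649 at an unadjusted p under 0.05; smallest limma adjusted p = 0.241). Without day 1 Gr1-positive replicate 1, Adgre4 alone passed. With day and replicate number together as a block, 18 genes passed (0.0903%), 3 with a signed step higher in Gr1-positive than in Gr1-negative cells (0.015%) and 15 with one that was lower (0.0752%). For the 3 genes, Adgre4, Ace and Pdcd1, it was the Gr1-negative signal that fell, while the Gr1-positive differences were -0.09, -0.09 and 0.03. Of 26 mitosis genes and 31 DNA replication genes, 10 and 17 rose in Gr1-negative cells, beside 3.80% of all genes, and none passed in Gr1-positive cells. Mki67, the proliferation marker, was 0.57 higher in Gr1-positive (0.179) and 0.89 higher in Gr1-negative cells (0.00751), but no member of either list passed this test of the difference.

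**Figure D5:**
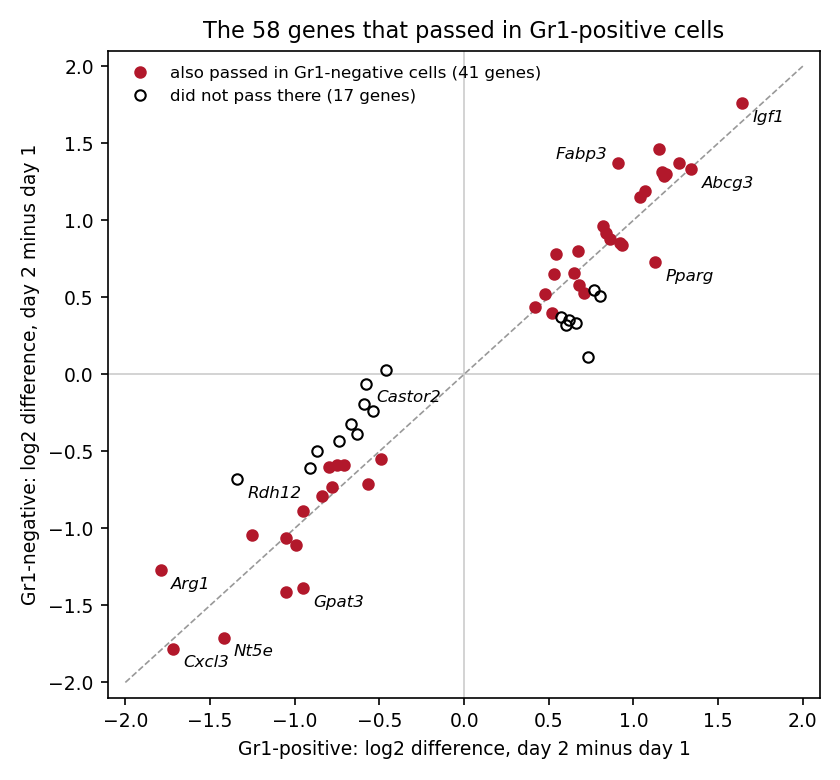
Log2 difference, day 2 minus day 1, in Gr1-positive cells (horizontal axis) and Gr1-negative cells (vertical axis) for the 58 genes that passed in Gr1-positive cells; filled points passed in both subsets (41 genes), open points in Gr1-positive cells alone (17 genes), and the dashed line marks equal differences. Of the 58 genes, 57 have the same sign in both subsets.

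The 3 day 4 arrays of the same subset, which entered the fit but not the comparison, gave later values for the genes that passed. Cxcl3 read 7.49, 7.65 and 6.85 there and Arg1 8.44, 7.40 and 6.97, below every day 2 array. Igf1 read 11.45, 10.91 and 11.11 and Abcg1 11.99, 11.91 and 12.13, above every day 2 array. Fabp4 read 9.88, 10.48 and 9.80, below every day 2 array, and Pparg 10.37, 10.77 and 10.82, overlapping its day 2 values.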

How the data were processed

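The 22 samples are single-colour Affymetrix arrays of biotin-labelled total RNA, 150 ng amplified per array. The deposited table holds log2 values for 35556 probe sets, made with RMA per the submitters' processing notes; its version and the background and summary settings are not given in the sources used here. RMA makes the arrays' distributions alike, so a shift of all genes would largely not show. Over the genes used, the medians of the compared arrays still ran from 7.26 to 7.41. The median difference was 0.06, and 0.0 after quantile normalization, which kept 52 of the 58 calls. The platform's annotation gave 21789 probe sets 1 gene, 1621 several and 12146 none, and symbols were updated through RefSeq's GRCm38.p6 table for 21698. The probe set with the highest mean stood for a gene (999 genes had several). Groups and replicate numbers came from the titles.

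limma 3.58.1 (R 4.3.3, statmod 1.5.0) fitted 1 mean per group over all 22 arrays, and p-values were adjusted by Benjamini-Hochberg over 19938 genes at 0.05, with no block. Named genes were the 15 largest rises and falls that passed without overlap, up to 4 members of each list with the smallest adjusted p, all identity genes, up to 6 per direction whose steps differed between subsets, and up to 5 per direction that passed only without day 2 replicate 1; predicted gene models were not named. Abca1, Apoe, Cbr2, Ccl8, Cd163, Cxcl1, Il1b, Lipa, Mirt2, Msr1, Olr1, Pf4 and Selenop were named after their values were seen. The comparison and the gene lists were chosen with earlier results of these data known. The limma fit was repeated with each array left out, with replicate number as a fixed block, and with day and number together as a random block. For the difference between the steps, day and number together were also fitted as a fixed block. Further repeats used quantile normalization, array weights, fewer samples or genes, other choices of probe set and another variance model. Terms for the Xist and Hal classes and leaving out both day 2 arrays numbered 1 were added after seeing the data. Probe sets with several genes or none were not used. Promoter letters come from RefSeq, GRCm38.p6. The number of arrays limits the precision.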

Additional observations from a re-analysis of the deposited data

Results flagged for a closer look

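The test of whether the step from day 1 to day 2 differs between the subsets found more than 3 genes in one of the fits run, the one that compared same-numbered arrays of a day within their pair. With day and number together as a fixed block, 18 genes passed a limma adjusted p of 0.05 (0.0903% of 19938), 3 with a signed step higher in Gr1-positive than in Gr1-negative cells and 15 with one that was lower, and 1685 genes had an unadjusted p under 0.05. Without a block none passed over all arrays, and Adgre4 alone passed without day 1 Gr1-positive replicate 1 and with the Xist and Hal class terms without day 2 Gr1-positive replicate 1. Adgre4, an adhesion receptor of the F4/80 family, had a Gr1-positive step 1.89 log2 units above the Gr1-negative one (adjusted p = 0.0301 with the block, 0.241 without): it read 9.22 to 10.22 at day 1 and 9.44 to 9.81 at day 2 in Gr1-positive cells, and in Gr1-negative cells 9.92 ± 0.09 at day 1 and 7.94 ± 0.27 at day 2 (SD, n = 3 each). Ace, the angiotensin-converting enzyme, differed by 1.55 (0.0301), and Pdcd1, the checkpoint receptor PD-1, by 0.79 (0.0411). In these 3 genes the Gr1-positive values overlapped between the days and the Gr1-negative values fell. The genes whose signed step was lower in Gr1-positive cells included the hydrolase Cmbl (-1.30; 0.00627), the sorting receptor Sort1 (-0.99), the histamine methyltransferase Hnmt (-1.17), the heme-binding protein Hebp1 (-0.79), the lysosomal channel Mcoln3 (-0.81) and the lipase Lipn (-1.10), the last 5 with an adjusted p of 0.0301. Sort1 read 8.72 to 9.05 and 9.15 to 9.36 in Gr1-positive cells at days 1 and 2, and 8.46 to 8.93 and 9.98 to 10.08 in Gr1-negative cells.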

How the results depend on the processing

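The count of 58 genes depended on the arrays and settings used. Leaving out 1 of the 6 arrays in turn gave 4 to 955 genes (Gpat3, H2bc4, Mirt2 and Pparg without day 1 replicate 1, and Gpat3, Mgat4a, Mirt2 and Pparg without day 2 replicate 2). Quantile normalization gave 113, array weights 1842 (1256 up, 586 down), genes at or above the median signal 125, and the 6 arrays fitted alone 0 (1573 at an unadjusted p under 0.05). In that last fit the spread of a gene was estimated from those 6 arrays only. Leaving out both day 2 arrays numbered 1 gave 1225 genes, and the class terms without day 2 replicate 1 gave 211. The replicate number as a fixed block gave 296, and the other alternatives 46 to 85. For the difference between the steps, where 0 passed, leaving out arrays gave 0 to 1, the class terms without day 2 replicate 1 gave 1 (Adgre4), and the remaining alternatives without a block of day and number 0. The cause of these moves was not tested.

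Of the 296 genes under the fixed block of replicate number, 149 were up and 147 down, and all 58 were among them. The numbers did not pair days 1 and 2 in Gr1-positive cells: same-numbered arrays had deviations with r = 0.312, 0.148 and -0.002, and 1 of 3 correlated best with its own number. Between subsets r was 0.098, 0.381 and 0.238 at day 1 and 0.646, 0.412 and 0.487 at day 2, each number correlating best with itself, and the labels do not say that a number is shared. As a random block, day and number gave 85 genes for the step and 3 for the difference (Ace, Adgre4 and Sort1); as a fixed block they gave 18 for the difference.

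Of 70 genes named with values under 21 alternatives, none changed sign; 1181 of 1466 values stayed on their side of the threshold. The counts of passing genes in the 43 lists stayed within 1.5 times, or without any passing gene in both fits, in 739 of 903 cases. Most lists had no passing gene in the main fit, so these cases mostly compare no call with no call and do not show stability.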

Other observations

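Lysosomal genes stood higher at day 2 without passing. Of 24 lysosomal hydrolase and proton pump genes, 21 had higher means at day 2, beside 13186 of all 19938 genes. All day 2 values lay above all day 1 values for 9 of the 24, beside 8.68% of all genes, and none passed over all arrays. Hexa, a hexosaminidase subunit, read 11.41, 11.77 and 11.69 at day 1 and 11.93, 12.06 and 12.04 at day 2 (0.39; limma adjusted p = 0.0933). Gpnmb, a lysosomal membrane glycoprotein of lipid-laden macrophages, read 11.63, 12.18 and 12.56 and then 12.95, 12.72 and 12.64 (0.65; 0.159), and Atp6v0d2, a proton pump subunit, 8.43, 9.16 and 8.71 and then 10.53, 9.61 and 9.48 (1.11; 0.204). The 26 mitosis genes had 23 higher means and 9 with no overlap, and Mki67 read 7.69, 7.56 and 7.54 at day 1 and 8.48, 7.95 and 8.06 at day 2.

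Day 2 replicate 1 was also the lowest day 2 array for interferon-stimulated genes, with Ifit2 at 7.52 against 9.25 and 9.27 and Ifit3 at 9.13 against 10.75 and 10.81. Day 1 replicate 1 was the lowest of its group for both, with Ifit2 at 7.66 against 9.27 and 8.94 and Ifit3 at 9.25 against 10.64 and 10.20. Cd209a, a lectin of monocyte-derived dendritic cells, read 6.75 on day 2 replicate 1 and 8.82 and 8.62 on the other day 2 arrays, and 7.89, 7.25 and 8.44 at day 1. These genes and arrays were picked after their values were seen.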
